A study of Mus musculus with 20 samples.

Results

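The 10 genes described here encode main hormones of the intestine's enteroendocrine cells, except Tph1, which encodes an enzyme of serotonin synthesis. All 10 are called hormone genes below. They were taken by symbol from the deposited table: Gcg, Cck, Sct, Gip, Sst, Nts, Pyy, Ghrl, Tac1 and Tph1. All 10 were found among 55487 mouse genes, and all 10 were among the 17464 genes with enough counts to be tested. They were measured in bulk polyA RNA of small intestine from mouse pups born to control dams or to dams with periodontitis, a chronic inflammatory disease of the gums. Pups of each kind were taken at 2 weeks and at 7 weeks, which made 4 groups of 5 libraries. The periodontitis was that of the dam, and the labels give no strain, genotype, sex, litter, means of inducing the disease or segment of the intestine. Nothing states how many litters the pups of a group came from, so the p-values measure only the spread between these libraries, and pups of 1 litter may not be independent.

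Enteroendocrine cells are single hormone-releasing cells scattered through the gut epithelium. Each type senses the lumen and releases a few peptides into the blood or onto nerves, and the types differ along the gut. Cck, Sct, Gip and Ghrl are known mainly from its upper end, and Gcg, Pyy and Nts mainly from the ileum and colon. Mouse pups live on milk at 2 weeks and on solid food at 7 weeks, and the gut epithelium is remodelled in between. Several of the genes are also used elsewhere. Ghrl and Sst are active in the stomach, Gcg, Sst and Pyy in pancreatic islets, Tac1 and Sst in enteric neurons, and Tph1 in mast cells.

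Total counts ran from 14882204 to 42563229 per library. The fifth 2-week control library stood apart, with the fewest counts, 20080 genes detected and 29.4% mitochondrial counts against 3.99% to 9.15% in the other libraries. Fold changes and correlations that it moves are given with and without it. The intestinal label was borne out by the enterocyte genes, since Fabp1 lay between 450.4 and 5287 CPM (counts scaled to a common library depth) and Vil1 between 511 and 3971 in all libraries. Of the enteroendocrine markers, Chga lay between 26.4 and 88.1 CPM and Chgb between 53.2 and 308. RNA of other tissues was present at 2 weeks and nearly absent at 7 weeks. The stomach gene Tff2 lay between 43.4 and 1053 CPM at 2 weeks and had 3 counts in all 10 libraries at 7 weeks, and the pancreatic gene Ctrb1 lay between 56.3 and 776 CPM against at most 0.187. The ileal gene Fgf15 lay between 39.5 and 126 CPM at 2 weeks and had 0 counts in each of the 10 libraries at 7 weeks, where 3 counts would be at most 0.187 CPM. In bulk tissue, fewer cells of a type and less RNA per cell cannot be told apart.

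The levels of the hormone genes were compared with each other per kilobase of exon (CPM per kb), which corrects for gene length, and the values of this paragraph are levels on that scale. In 2-week control pups the order by median was Gip at 52.3, Sst at 50.7, Sct at 35.7, Nts at 25.6, Cck at 16.4, Pyy at 14.5, Gcg at 13.5, Ghrl at 7.97, Tph1 at 2.36 and Tac1 at 1.80 CPM per kb. The ranges of Gip and Sst overlapped, as did those of Sct and Nts, those of Cck, Pyy and Gcg in turn, and those of Tph1 and Tac1. In 7-week control pups the order was Gip at 136, Sct at 88.0, Sst at 81.9, Cck at 63.6, Ghrl at 18.9, Nts at 11.96, Gcg at 4.69, Pyy at 3.27, Tph1 at 2.23 and Tac1 at 0.458 CPM per kb. There the neighbours Sct and Sst, Ghrl and Nts, Gcg and Pyy, and Pyy and Tph1 overlapped. In periodontitis pups the medians of Pyy and Cck were 25.0 and 19.9 at 2 weeks, so that Pyy stood above Cck, with ranges that overlapped. Those of Tph1 and Pyy were 2.12 and 1.83 at 7 weeks, again with overlap. Tac1 also stood above Tph1 at 2 weeks (1.93 and 1.85) and Nts above Ghrl at 7 weeks (17.4 and 16.8), each with overlap. Gip, which encodes a hormone that raises insulin release after a meal, thus had the highest median in all 4 groups, at 55.4 and 143 CPM per kb in periodontitis pups. The exon length used joins all annotated transcripts, so it understates the level of a gene such as Tph1, whose joined exons span 6172 bases.

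**Figure D1:**
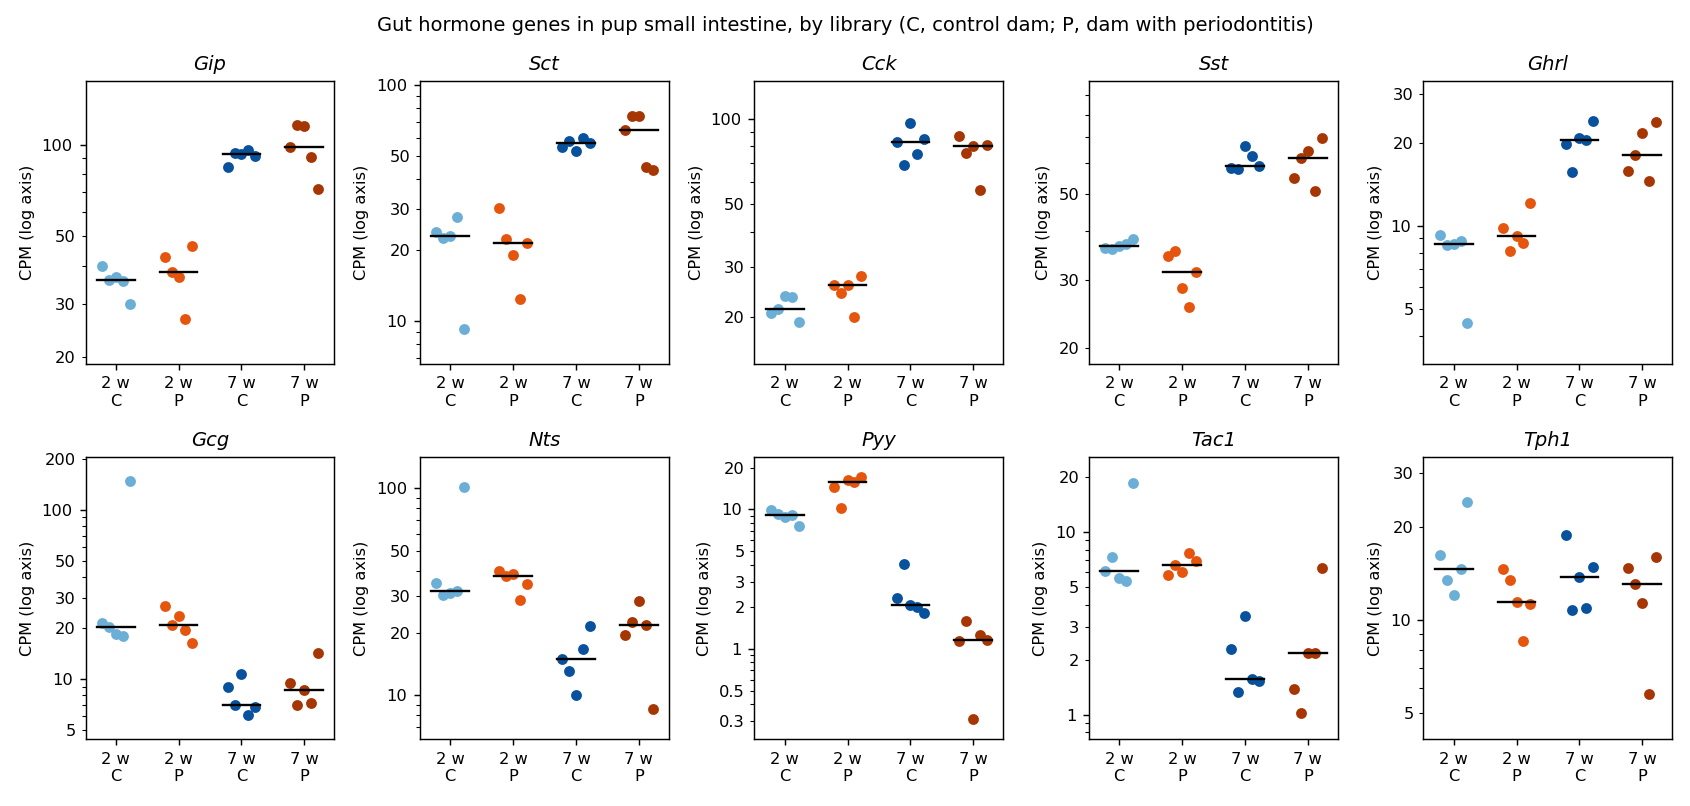
CPM of each hormone gene (log axis) in every library, by age and dam, with the median of each group as a line. Gip, Sct, Cck, Sst and Ghrl lie higher at 7 weeks, Gcg, Nts, Pyy and Tac1 lower, and 2-week control library 5 stands off in several panels, most in Gcg at 147 CPM.

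The first question was whether the hormone genes differ between pups of the 2 kinds of dam. At 2 weeks 0 of the 10 genes passed an adjusted p of 0.05 by the quasi-likelihood test of edgeR with Benjamini-Hochberg adjustment over all tested genes, where 0.0286% of all tested genes did (0.0172% higher, 0.0115% lower). Gcg, Sst and Pyy had an unadjusted edgeR p under 0.05, which makes 3, beside 2511 of all 17464 tested genes. DESeq2 called 0 of the 10, with no adjusted p for Gcg, and 3.43% of all tested genes. Limma-voom with sample weights called 2, Sst and Pyy, but also 29.8% of all tested genes, a larger share than 2 of 10. At 7 weeks edgeR again called 0 of 10, where 0.0115% of all tested genes were called, all of them higher. Of the 10, only Pyy had an unadjusted edgeR p under 0.05, beside 582 of all 17464 tested genes. DESeq2 called 1, Pyy, and 0.143% of all tested genes, and limma-voom called 0 and 0.0458%. In the difference of the dam effect between ages edgeR called 0, beside 0.0229% of all tested genes. An unadjusted edgeR p under 0.05 was found for 1 of the 10, beside 1537 of all 17464 tested genes. DESeq2 and limma-voom each called 1, in both cases Pyy. Those tools called 0.372% and 6.77% of all tested genes in this comparison.

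Pyy encodes peptide YY, a hormone of ileal and colonic L cells that slows gastric emptying and reduces appetite. At 2 weeks it stood at 9.94, 9.34, 8.85, 9.13 and 7.57 CPM in the control libraries and at 14.5, 10.2, 16.2, 15.8 and 17.1 CPM in the periodontitis libraries. Each periodontitis library lay above each control library. The log2 fold change was 0.72 ± 0.27 (SE, n = 5 and 5), with a 95% interval from 0.16 to 1.28 and an edgeR adjusted p of 0.225. At 7 weeks the order was the opposite. Pyy stood at 2.32, 4.07, 2.07, 1.99 and 1.81 CPM in the control libraries and at 1.14, 1.59, 0.312, 1.25 and 1.16 CPM in the periodontitis libraries. Each periodontitis library now lay below each control library. The log2 fold change was -1.18 ± 0.30 (SE), with an interval from -1.81 to -0.56 and an edgeR adjusted p of 0.397. These 7-week values rest on 9 to 83 counts per library. Without 7-week control library 2, the highest of its group, the difference was -0.93 with an edgeR adjusted p of 0.980.

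The test of the difference itself gave -1.90 ± 0.40 on the log2 scale for Pyy, with an interval from -2.74 to -1.06 and an edgeR adjusted p of 0.158, so it did not pass. By DESeq2 the same difference was -1.89 with an adjusted p of 0.000982, and by limma-voom -2.43 with an adjusted p of 0.00296. Over all alternatives edgeR, DESeq2 and limma-voom gave between -2.43 and -1.47, all of them negative, with adjusted p from 0.000982 to 0.638. Groups without overlap were found for 2 of the 10 genes at 2 weeks, Pyy and Sst, where 7.25% of all tested genes showed this. At 7 weeks there was 1 such gene, Pyy, where 0.527% of all tested genes did.

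Several measures of intestinal position and age moved beside Pyy at 2 weeks, and their part in its values was not tested. The mean log2 CPM of the 6 distal segment genes lay between 6.12 and 6.83 in controls and at 6.60, 6.50, 4.86, 4.39 and 4.49 in the periodontitis libraries. Fabp6, an ileal bile acid binding protein, lay between 197 and 510 CPM in controls and between 2.92 and 365 in the periodontitis libraries, with a median of 17.5. Insl5, a hormone gene of colonic L cells, lay between 0.161 and 0.352 CPM in controls and between 0.511 and 1.65 in the periodontitis libraries, without overlap (log2 fold change 1.85 ± 0.41 SE, edgeR adjusted p = 0.058). The 8 suckling enterocyte genes had a mean log2 CPM of 5.72 to 7.07 in controls and 7.16 to 8.07 in the periodontitis libraries, also without overlap. In an edgeR fit with the proximal and distal list scores as covariates, the Pyy difference was positive at 2 weeks and negative at 7 weeks. Neither passed, and 0 of all 17464 tested genes were called at either age. That fit does not test the part of position in the Pyy values.

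Gcg encodes proglucagon, which L cells cut into the incretin GLP-1 and the gut growth factor GLP-2. At 2 weeks it stood at 21.4, 20.2, 18.4, 18.0 and 147 CPM in the control libraries and at 26.8, 20.7, 23.5, 19.5 and 16.3 CPM in the periodontitis libraries. The fifth control library stood above all others, and the other 9 libraries of this age overlapped. The log2 fold change of -1.06 ± 0.47 (SE, edgeR adjusted p = 0.305) became 0.13 (adjusted p = 0.889) without that library. In the same library Nts, which encodes the fat-released peptide neurotensin, stood at 101 CPM against 30.5 to 35.0 in the other controls. Tac1, the gene of substance P, stood there at 18.4 CPM against 5.39 to 7.25. Without it the differences of Nts and Tac1 turned from -0.35 and -0.36 to 0.16 and 0.12. Sct and Ghrl were low in that library, at 9.26 and 4.43 CPM, and the mitochondrial percentage that stands beside these values is given above; its part in them was not tested.

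Sst encodes somatostatin, which restrains the release of most other gut hormones. It stood at 36.1, 36.0, 36.6, 37.0 and 38.2 CPM in 2-week control libraries and at 34.5, 35.5, 28.5, 25.4 and 31.3 CPM in 2-week periodontitis libraries. The groups did not overlap, though the nearest libraries stood at 36.0 and 35.5 CPM, and the log2 fold change was -0.24 ± 0.11 (SE, edgeR adjusted p = 0.336). At 7 weeks it was -0.01 ± 0.11 with overlapping groups. Tph1, the enzyme that begins serotonin synthesis in enterochromaffin cells, differed by -0.43 ± 0.24 at 2 weeks and by -0.18 ± 0.25 at 7 weeks (edgeR adjusted p = 0.434 and 1.0).

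Gip, Cck, Sct and Ghrl, the hormone genes of the upper gut, did not pass between dams at either age by edgeR. Gip differed by 0.10 (95% interval -0.21 to 0.41) at 2 weeks and by 0.10 (-0.21 to 0.41) at 7 weeks on the log2 scale. Cck, the gallbladder- and pancreas-stimulating hormone, differed by 0.19 (-0.09 to 0.47) and by -0.11 (-0.39 to 0.17). Sct, which drives bicarbonate release from the pancreas, differed by -0.02 (-0.53 to 0.49) and by 0.10 (-0.41 to 0.60). Ghrl, the gene of the hunger hormone ghrelin, differed by 0.26 (-0.13 to 0.66) and by -0.10 (-0.49 to 0.29). The intervals still allow changes of these sizes. Nts and Tac1 at 7 weeks differed by 0.40 ± 0.33 and 0.37 ± 0.43 (SE). Tac1 stood at 6.31 CPM in the fifth 7-week periodontitis library and between 1.02 and 2.18 in the others of that group, and its difference was -0.28 without it. That library also had the highest mean log2 CPM of enteric neuron markers at 7 weeks, 1.89, whose part in the Tac1 value was not tested.

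**Figure D2:**
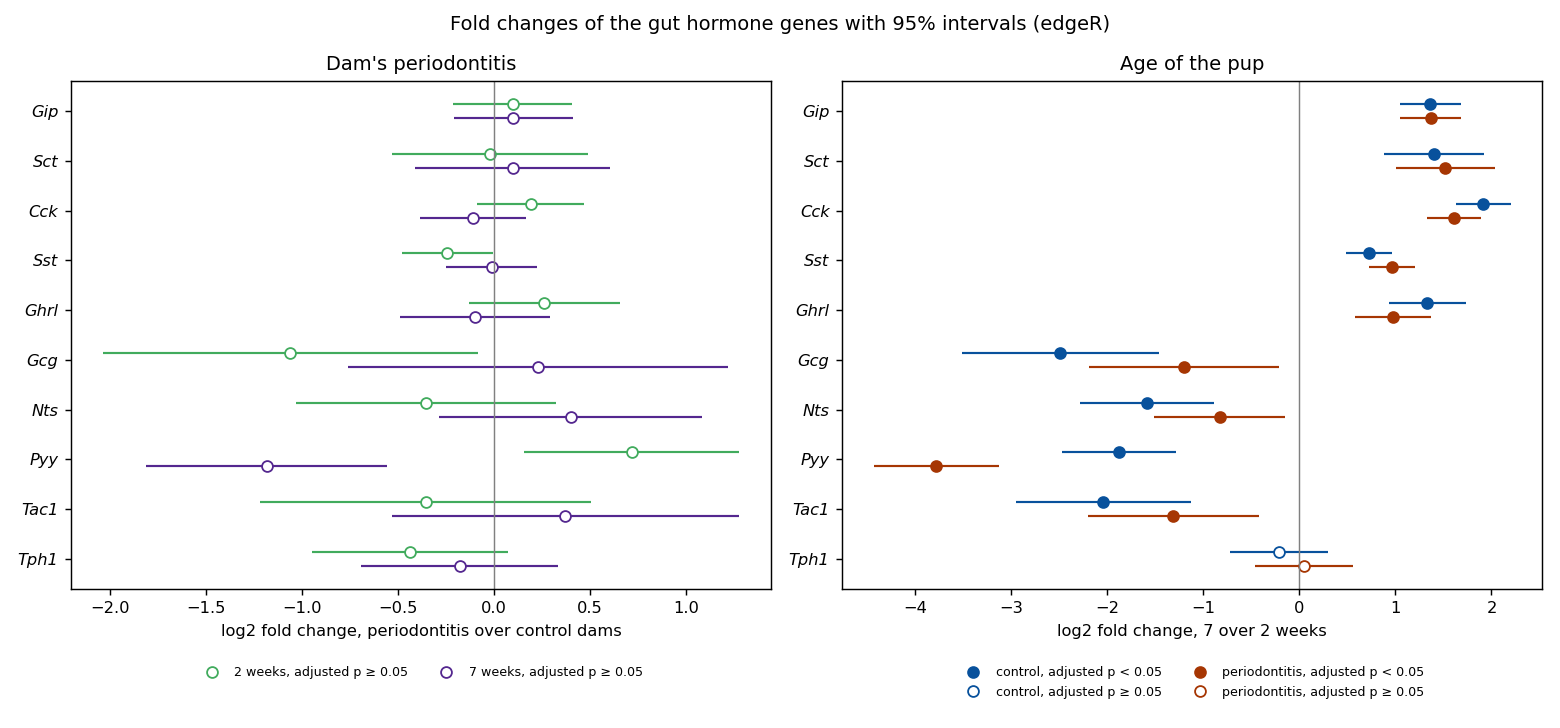
Log2 fold changes of the hormone genes with 95% intervals, for dam (left) and age (right). Open points did not pass an adjusted p of 0.05 by edgeR, filled points did. All 20 dam effects are open, and 9 of 10 genes are filled in each age comparison.

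The second comparison was between ages. In control pups 5 hormone genes rose from 2 to 7 weeks (Cck, Sct, Gip, Sst, Ghrl), 4 fell (Gcg, Nts, Pyy, Tac1) and Tph1 did not pass. In periodontitis pups the same 5 rose, the same 4 fell and Tph1 did not pass. These 9 of 10 stand beside 61.5% of all tested genes called in control pups (27.1% higher, 34.4% lower) and 66.1% in periodontitis pups (30.4% higher, 35.7% lower), so a call by age is common in these libraries. The median log2 fold change of the 10 genes was 0.26 and 0.50, beside -0.13 and -0.11 over all tested genes. Groups did not overlap for 9 of the 10 genes in control pups and for 8 in periodontitis pups, where 45.7% and 53.2% of all tested genes showed this.

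Library scaling bears on these directions. The scaling factors were 0.84 to 1.45 at 2 weeks and 0.71 to 0.99 at 7 weeks, and scaling by total counts alone moved the median of all genes to -0.79 in control and -0.88 in periodontitis pups. Of the genes called, 14.3% and 16.1% were then higher at 7 weeks, against 44.1% and 46.0% of those called with the scaling used here. Under total counts Cck, Sct and Gip still rose and Gcg, Nts, Pyy and Tac1 still fell by edgeR in both kinds of pup. Sst was then not called in either (0.07 and 0.19), Ghrl was called in control pups (0.62) and not in periodontitis pups (0.21), and Tph1 fell in both (-0.81 and -0.70), its periodontitis value having been 0.04. The 10 genes together took 0.0219% to 0.0333% of raw counts in all libraries, and the 2 ages overlapped.

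**Figure D3:**
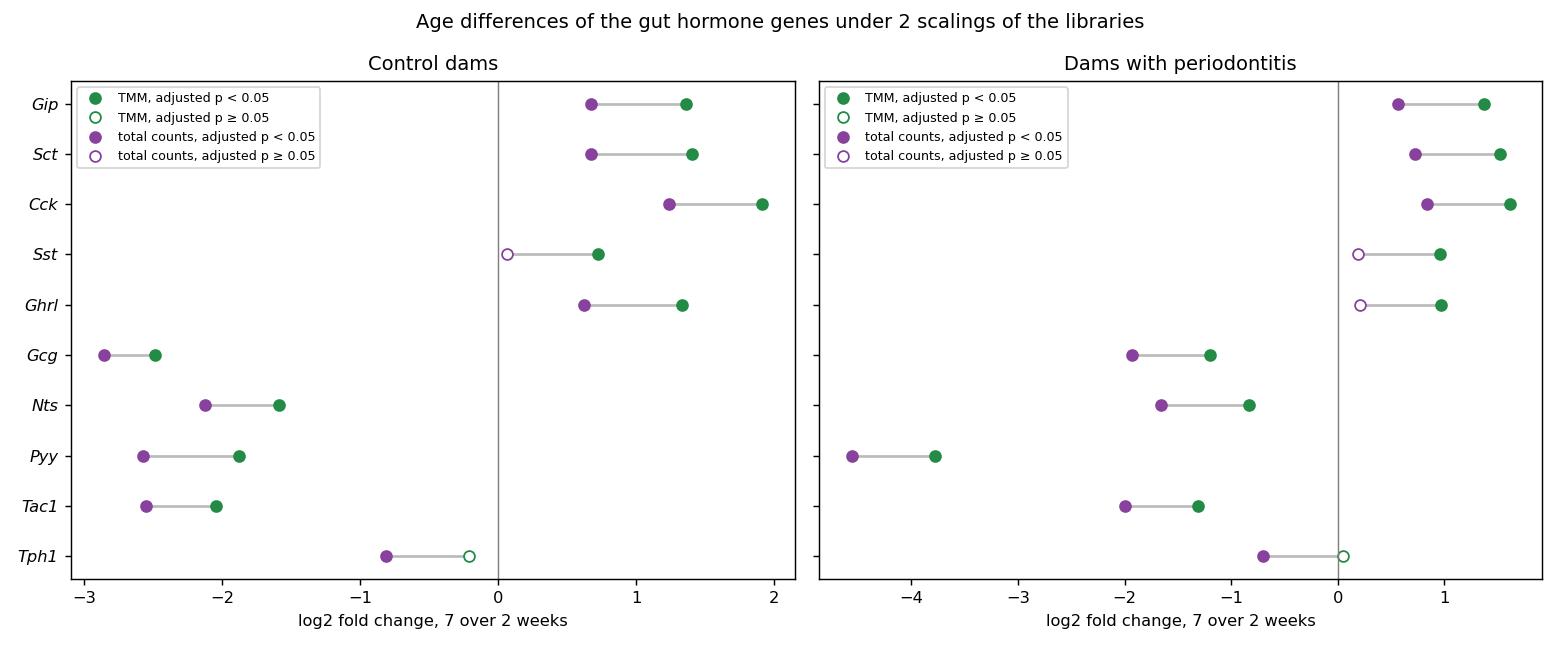
Log2 fold changes from 2 to 7 weeks with TMM scaling (green) and with total counts (purple), filled where the edgeR adjusted p is under 0.05. All 10 genes move left under total counts, Sst to 0.07 in control pups and Tph1 below 0 in periodontitis pups.

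Cck had the largest rise. In control pups it went from 20.7, 21.4, 23.8, 23.5 and 19.2 CPM at 2 weeks to 82.9, 69.0, 97.2, 75.6 and 85.1 at 7 weeks, 3.76-fold (log2 1.91 ± 0.14 SE, edgeR adjusted p = 4.8e-09). In periodontitis pups it rose 3.06-fold. Gip went from 40.0, 35.9, 36.6, 35.6 and 29.9 CPM to 84.1, 93.8, 93.2, 96.0 and 91.5 in control pups, 2.57-fold (edgeR adjusted p = 6.6e-07), and rose 2.58-fold in periodontitis pups. Neither gene's groups overlapped. In the periodontitis libraries Gip stood at 42.8, 38.1, 36.7, 26.6 and 46.5 CPM at 2 weeks and at 98.3, 116, 115, 91.2 and 71.7 CPM at 7 weeks, so the spread at 7 weeks was wider than in controls.

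Sct went from 23.9, 22.5, 23.0, 27.5 and 9.26 CPM to 54.6, 58.2, 52.7, 59.9 and 56.8 CPM in control pups, 2.64-fold (log2 1.403 ± 0.25 SE, edgeR adjusted p = 9.0e-05), and rose 2.87-fold in periodontitis pups. Ghrl went from 9.24, 8.53, 8.60, 8.80 and 4.43 CPM to 19.7, 15.6, 20.8, 20.4 and 23.9 CPM in control pups, 2.52-fold, and rose 1.96-fold in periodontitis pups. Both kept their rise by edgeR without the low 2-week control library, at 1.22 and 1.19 on the log2 scale. Sst rose 1.66-fold and 1.95-fold in control and periodontitis pups, to 57.9 to 66.4 CPM and 51.0 to 69.9 CPM at 7 weeks.

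Pyy showed the largest fall in periodontitis pups, 13.7-fold (log2 -3.78 ± 0.31 SE, edgeR adjusted p = 1.3e-08), and fell 3.68-fold in control pups (-1.88 ± 0.28). The test of the difference between these falls is the one given above, which did not pass by edgeR. Gcg fell 5.61-fold in control pups, from a group that holds the library at 147 CPM, to 8.92, 7.01, 10.7, 6.15 and 6.84 CPM at 7 weeks. Its log2 fold change there was -2.49 ± 0.49 (SE), and -1.297 without that library (edgeR adjusted p = 1.8e-05). In periodontitis pups it fell 2.29-fold, from 16.3 to 26.8 CPM to 7.01 to 14.1 CPM (edgeR adjusted p = 0.032). That call was lost, with adjusted p from 0.0520 to 0.0687, when 2-week periodontitis library 1 or 3 or 7-week periodontitis library 1, 2, 3 or 4 was left out.

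In control pups Nts stood at 35.0, 30.5, 31.1, 32.0 and 101 CPM at 2 weeks and at 14.9, 13.04, 10.003, 16.7 and 21.7 CPM at 7 weeks. It fell 3.00-fold (-1.08 in place of -1.58 on the log2 scale without the fifth 2-week control library) and 1.78-fold in periodontitis pups (-0.83 ± 0.33 SE, edgeR adjusted p = 0.0316). The latter call was lost without 2-week periodontitis library 1 or 3 or 7-week periodontitis library 1 or 5, with adjusted p from 0.0532 to 0.0621. Tac1 fell 4.12-fold in control pups (log2 -2.04, and -1.57 without the fifth 2-week control library) and 2.48-fold in periodontitis pups. Its 7-week periodontitis group overlapped with 2 weeks through the library at 6.31 CPM, and without that library the fall was 1.98 in place of 1.31 on the log2 scale. Tph1 lay between 8.51 and 24.1 CPM at 2 weeks and between 5.73 and 18.8 at 7 weeks, which overlap.

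Shares within a library do not depend on library scaling. Of the 10 genes' summed CPM per kb, Gip, Sct, Cck and Sst made up medians of 23.9%, 15.95%, 7.52% and 22.5% in 2-week control libraries and 31.9%, 21.4%, 15.6% and 20.5% in 7-week control libraries. Gcg, Nts and Pyy went from medians of 6.17%, 11.3% and 6.35% to 1.18%, 3.03% and 0.771%. The Gip, Sct and Cck shares were higher in each 7-week control library than in each 2-week control library, and those of Gcg, Nts and Pyy lower, while the ranges of the Sst share overlapped. In periodontitis libraries the median share of Pyy was 11.0% at 2 weeks and 0.488% at 7 weeks. In 2-week control library 5 Gcg alone took 29.7%.

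**Figure D4:**
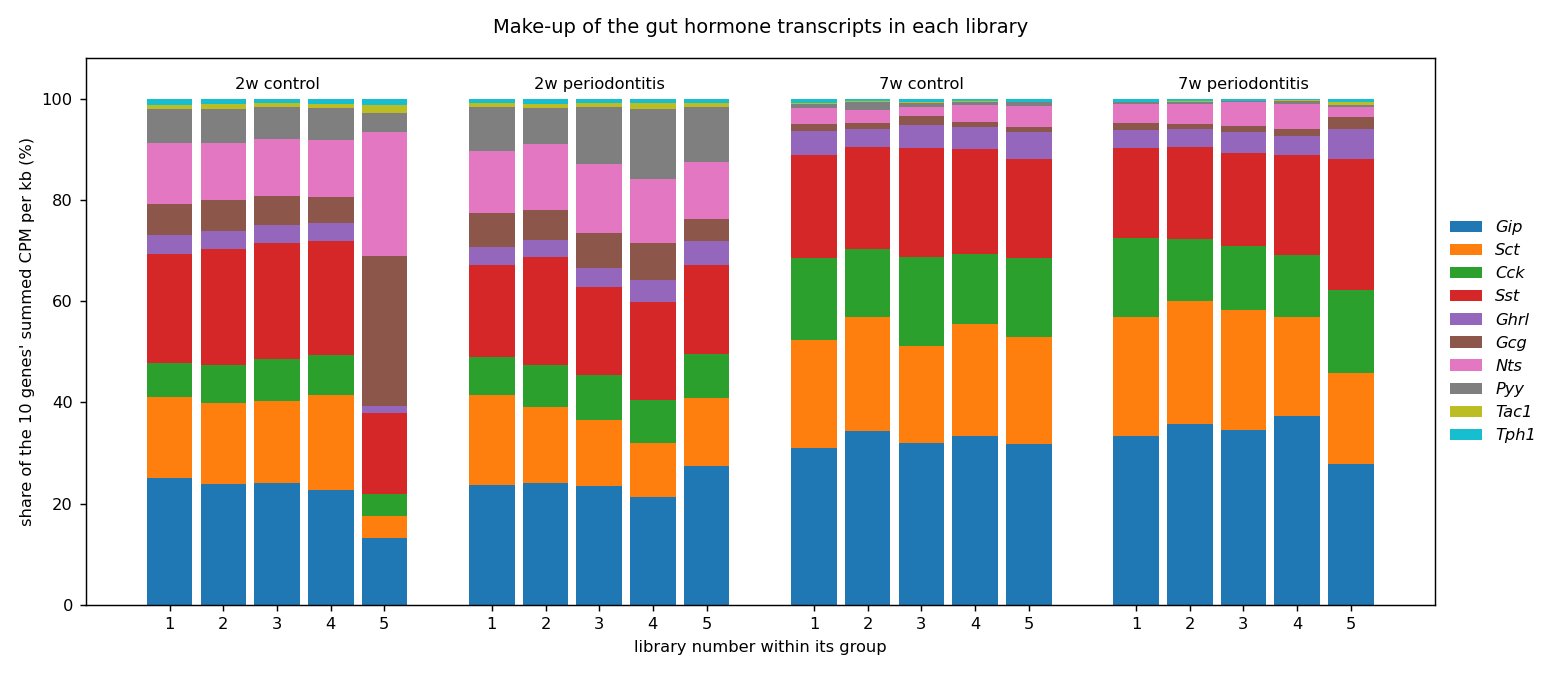
Share of each hormone gene in the 10 genes' summed CPM per kb, by library. Gip, Sct, Cck and Sst fill most of each bar at 7 weeks, Gcg, Nts and Pyy are wider at 2 weeks, and in 2-week control library 5 Gcg and Nts take 29.7% and 24.6%.

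Promoters of 5 genes called with age are printed to show what rising and falling hormone genes have before their start sites. They are 3 hormones of the upper gut and the 2 of L cells, not a ranking by strength of the difference. They are the 250 bases before the RefSeq start on GRCm38.p6, 5′ to 3′ on the gene's strand. All 10 genes were matched in RefSeq. Capitals mark matches, on either strand, to the E-box CANNTG (read by factors such as Neurog3 and Neurod1), the GATA motif AGATAA, the TATA motif TATAAA or the cAMP response element TGACGTCA.
Gip (chr11:96024295-96024544, + strand): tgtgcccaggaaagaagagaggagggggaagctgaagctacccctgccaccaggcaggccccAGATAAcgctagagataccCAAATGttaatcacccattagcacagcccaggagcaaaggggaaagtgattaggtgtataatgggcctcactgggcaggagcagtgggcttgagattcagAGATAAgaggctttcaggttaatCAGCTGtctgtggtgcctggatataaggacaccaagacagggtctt
Sct (chr7:141279134-141279383, - strand): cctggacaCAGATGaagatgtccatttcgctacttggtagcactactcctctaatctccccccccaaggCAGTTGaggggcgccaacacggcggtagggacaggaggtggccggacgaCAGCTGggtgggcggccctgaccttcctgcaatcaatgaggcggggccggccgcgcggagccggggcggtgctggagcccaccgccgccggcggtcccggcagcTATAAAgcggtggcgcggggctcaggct
Cck (chr9:121495695-121495944, - strand): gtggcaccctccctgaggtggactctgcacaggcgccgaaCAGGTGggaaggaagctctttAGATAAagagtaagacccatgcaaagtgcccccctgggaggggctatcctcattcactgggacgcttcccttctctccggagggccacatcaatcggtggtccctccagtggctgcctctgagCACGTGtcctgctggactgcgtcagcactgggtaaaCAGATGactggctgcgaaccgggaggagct
Gcg (chr2:62483654-62483903, - strand): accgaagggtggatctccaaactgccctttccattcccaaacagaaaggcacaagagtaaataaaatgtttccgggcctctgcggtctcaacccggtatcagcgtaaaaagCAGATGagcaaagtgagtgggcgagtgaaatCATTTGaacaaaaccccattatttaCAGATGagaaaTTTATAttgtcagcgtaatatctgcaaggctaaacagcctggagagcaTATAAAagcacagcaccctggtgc
Pyy (chr11:102107833-102108082, - strand): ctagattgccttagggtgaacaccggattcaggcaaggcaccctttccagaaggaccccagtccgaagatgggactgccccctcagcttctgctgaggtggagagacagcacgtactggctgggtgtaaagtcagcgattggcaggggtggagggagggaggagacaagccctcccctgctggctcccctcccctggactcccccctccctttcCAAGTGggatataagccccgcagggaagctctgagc

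Among these windows Sct held a TATA match 28 bases and Gcg one 24 bases before the start, counted to the match's first base. Gip held GATA matches at 188 and 69 bases, Cck one at 189 bases, and no match of one motif overlapped with one of another in these 5 windows. An E-box was found in 9 of the 10 hormone genes, where 66.2% of 32851 RefSeq promoters of the same length held one. GATA matches were found in 4 of 10 (9.99% of promoters), TATA matches in 2 of 10 (12.4%) and the cAMP response element in 1 of 10, Sst (1.55%). Both rising and falling genes held E-boxes, and a match is only a description of the letters.

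The next counts are of other lists around hormone release, which in bulk tissue cannot be assigned to enteroendocrine cells alone. They stand beside 27.1% of all tested genes higher and 34.4% lower with age in control pups, and 30.4% and 35.7% in periodontitis pups. Of 18 tested secretory granule genes, 15 fell and 0 rose in control pups, and 14 fell and 1 rose in periodontitis pups. Cplx2, a regulator of vesicle fusion, went from 18.1 ± 1.88 to 6.03 ± 1.36 CPM (SD, n = 5 and 5) in control pups, and the vesicular monoamine transporter Slc18a1 from 23.5 ± 4.52 to 9.87 ± 1.46 CPM. The small GTPase Rab3c (log2 -1.91) and the fusion protein Snap25 (-2.60) also fell by edgeR. Of 20 tested enteroendocrine transcription factors 12 fell and 0 rose in control pups, led by Foxa1 (-1.67), Etv1 (-2.13), Mnx1 (-2.66) and Myt1 (-1.33). In periodontitis pups 9 fell and 2 rose, the latter Neurod1 (1.71 ± 0.36 SE) and Rfx3 (0.84 ± 0.24).

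Of 10 genes for prohormone processing and hormone breakdown, 2 rose and 3 fell in control pups. Mme, a peptidase of the brush border, rose by 2.53 and Furin by 1.04 on the log2 scale, and the amidating enzyme Pam fell by 1.52 and the convertase Pcsk2 fell by 2.80. Among 13 serotonin genes 3 rose and 6 fell. Maoa, which breaks serotonin down, went from 65.7 ± 26.5 to 920.4 ± 94.4 CPM (SD), Ddc, which completes its synthesis, rose by 2.92, and the receptor gene Htr4 fell by 2.13. Of 18 receptor genes for peptide hormones 14 fell and 0 rose, among them the GLP-1 receptor Glp1r (-3.35), Sstr3 (-2.12) and the Cck receptor Cckar (-4.11). Npy4r also fell, from 68 counts in the 2-week control libraries to 2 in those of 7 weeks. Of 14 nutrient sensor genes 4 rose and 4 fell, near the shares over all tested genes, as were those of the processing genes, with the taste channel Trpm5 (2.40) and the fatty acid receptor Ffar3 (2.14) higher and the stretch channel Piezo2 (-2.68) and the fatty acid receptor Ffar2 (-1.02) lower. Of 14 other peptide hormone genes 1 rose and 10 fell, among them Penk (-3.54) and Apln (-2.25). The falls of Gast and Insl5 ended at 4 and 1 counts over all 7-week control libraries, from 801 and 48 at 2 weeks. In control pups under total counts these lists had 0, 0, 1, 2, 0, 2 and 0 rises and 16, 16, 6, 9, 16, 8 and 11 falls, in the order granule, transcription factor, processing, serotonin, receptor, sensor and other hormone genes. Under that scaling 11577 of all 17464 tested genes were called in control pups, of which 1652 were higher and the rest lower.

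Between dams, the same lists held 1 called gene at 2 weeks by edgeR. Maoa lay between 42.1 and 95.3 CPM in control libraries and between 12.8 and 37.5 in periodontitis libraries, without overlap (log2 -1.73 ± 0.28 SE, adjusted p = 0.0427). The direction held in all 31 alternatives (-2.10 to -1.29), but the call was lost in 16 of them, with adjusted p up to 0.249. These were the edgeR fits with DESeq2 size factors (0.0506), only the groups compared (0.249), the replicate block (0.123) and the segment covariates (0.0959), and 12 of the 20 fits without 1 library. Those 12 left out 2-week control library 1, 2, 3 or 4, 2-week periodontitis library 3, 4 or 5, 7-week control library 1, 2, 3 or 4 or 7-week periodontitis library 3. At 7 weeks edgeR called 0 in any of these lists, and DESeq2 and limma-voom called 0 as well. An unadjusted edgeR p under 0.05 was found for 2 receptor genes and 0 in the other 6 lists, beside 582 of all 17464 tested genes. The 2 smallest p at 2 weeks belonged to Neurod1 and Atoh1 among transcription factors, Cplx2 and Slc18a1 among granule genes, and Dpp4, the enzyme that cuts GLP-1, and Mme among processing genes. Elsewhere they belonged to Gipr and Npy4r among receptors, Ffar2 and Ffar4 among sensors, and Insl5 and Apln among other hormone genes. Dpp4 lay between 215 and 543 CPM in controls and between 66.6 and 179 in periodontitis libraries, without overlap (-1.29 ± 0.32 SE, edgeR adjusted p = 0.073). The mean log2 CPM of the 6 weaned enterocyte genes lay between 7.98 and 8.42 in 2-week controls. In the 2-week periodontitis libraries it lay between 5.19 and 7.99, which overlaps. All 6 had a lower estimate in periodontitis pups (median log2 -1.15), and edgeR called 0 of the 6. Their part in the Maoa and Dpp4 values was not tested. DESeq2 called 2 processing genes, 1 serotonin gene and 1 other peptide hormone gene at 2 weeks, where it called 3.43% of all tested genes, and limma-voom called between 1 and 6 genes in each of the 7 lists, where it called 29.8% of all tested genes.

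Markers of other tissues moved with age beside the hormones, and their part in the hormone results was not tested. The mean log2 CPM of stomach markers lay between 0.88 and 5.36 at 2 weeks and between -3.37 and -2.26 at 7 weeks. For pancreas markers the ranges were 1.49 to 5.23 and -3.02 to -2.62, and for enteric neuron markers 1.93 to 3.56 and -0.19 to 1.89. The distal segment genes lay between 4.39 and 6.83 at 2 weeks and between 0.55 and 2.25 at 7 weeks, so these scores separate the ages fully. Of the 9 stomach markers tested 8 fell in control pups, of the 12 pancreas markers 11 fell and 1 rose, and of the 12 neuron markers 11 fell and 0 rose. Of the 9 proximal segment genes 7 rose and 2 fell. These counts stand beside 34.4% of all tested genes lower and 27.1% higher with age in control pups. With the proximal and distal scores as covariates, 4 of the 10 hormone genes were called with age in control pups. That fit called 7115 of all 17464 tested genes. The distal score does not overlap between the ages, so this fit cannot tell age from position, and its values are only described. Gcg and Ghrl then changed sign without passing (0.30 and -0.06). Nts changed sign and passed (2.49), and Cck, Gip and Pyy kept their sign and their call.

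**Figure D5:**
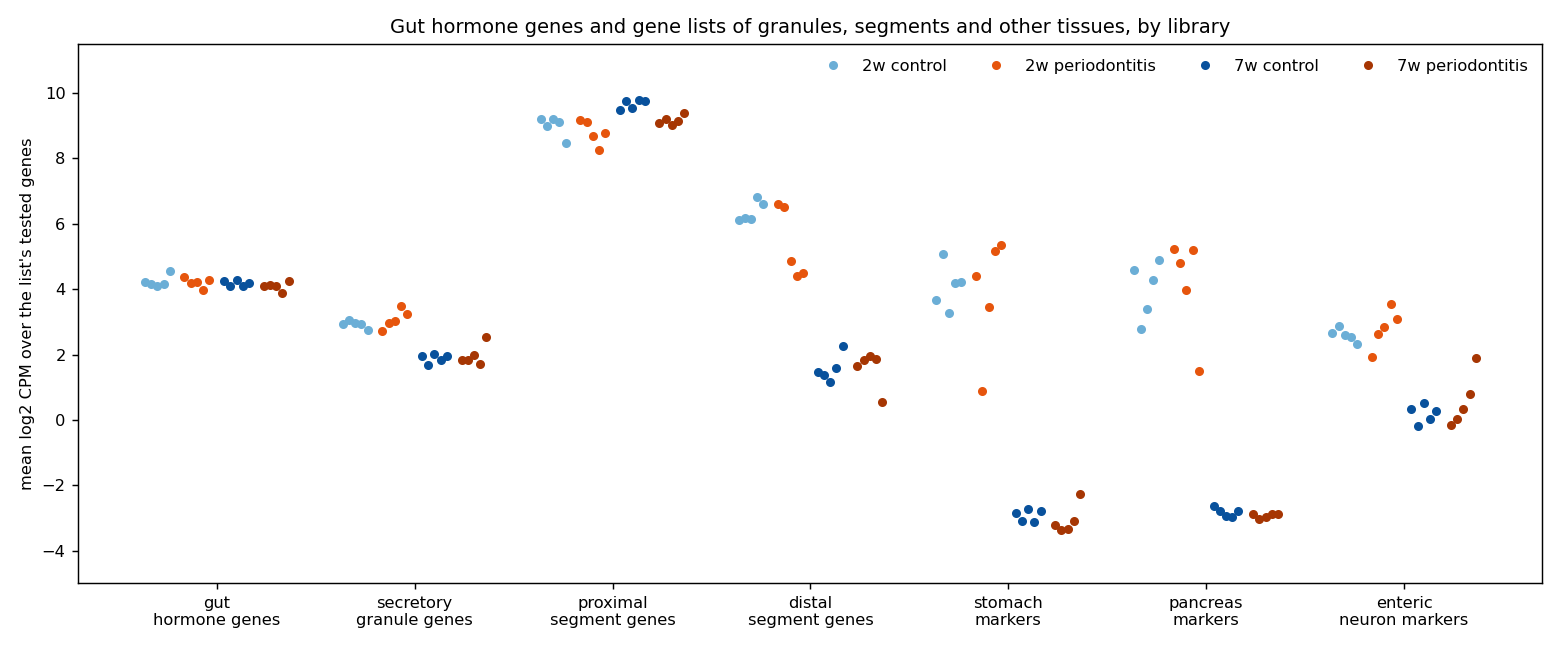
Mean log2 CPM of the hormone genes and of 6 other gene lists in each library, by group. The hormone genes lie between 3.87 and 4.54 in all libraries, while the distal, stomach, pancreas and neuron lists are lower at 7 weeks.

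Within groups some hormone genes varied together, and several of these relations rested on 2-week control library 5. After the group means were taken out, the Pearson r of log2 CPM was 0.78 for Sct and Gip over 20 libraries and 0.84 over the 19 without that library. For Gcg and Tac1 it was 0.73 and 0.69, and for Sct and Tac1 -0.70 and -0.54. For Gcg and Sct it went from -0.68 to -0.11, for Gcg and Nts from 0.43 to -0.61, and for Gcg and Ghrl from -0.58 to 0.24. These r describe libraries that share depth and tissue content.

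The genes most like each hormone gene by this measure over 20 libraries were Sectm1b, Rbp2 and Slc31a1 for Gip (r = 0.90, 0.86 and 0.82), Xdh, Pi4ka and Sptan1 for Cck (0.78 each), and Ank, Adh1 and Cnnm2 for Sst (0.83, 0.83 and 0.81). For Pyy they were Ccn1, H2aw and Sytl4 (0.70, 0.70 and 0.69), and for Tph1 Cab39l, Alg12 and Ccdc91 (0.89 each). Rbp2, the retinol carrier of enterocytes, and Slc31a1, a copper transporter, are genes of the absorptive epithelium. In the 5 genes where 2-week control library 5 stood apart, the r fell without it. For Gcg the r of Krtcap2, Dnajc8 and Hacd2 went from 0.98, 0.98 and 0.97 to 0.90, 0.86 and 0.81. For Nts those of Gtf2b, Sft2d1 and Vamp3 went from 0.94 each to 0.89 each, and for Ghrl those of Fam210b, Hdac6 and Tmem203 from 0.90, 0.88 and 0.88 to 0.78, 0.75 and 0.79. For Sct those of Sec14l2, Rnf181 and Acsf2 went from 0.94, 0.94 and 0.93 to 0.90, 0.88 and 0.87, and for Tac1 those of Rpl23, Armc10 and Sdc2 from 0.96 each to 0.95, 0.95 and 0.94. The genes were ranked with that library included. Taking the highest r among many tested genes raises such values by itself, so they are only a description.

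All 10 genes were placed on GRCm38 by GENCODE M21. Gcg lies on chromosome 2 (62474530-62483650), Cck on 9 (121489824-121495694), Sct on 7 (141278330-141279133), Gip on 11 (96024545-96030831), Sst on 16 (23889573-23890958), Nts on 10 (102481756-102490486), Pyy on 11 (102106676-102107832), Ghrl on 6 (113716119-113719880), Tac1 on 6 (7554879-7565834) and Tph1 on 7 (46644641-46672537). Ghrl overlaps 2 genes on the other strand, Gm26982 and Gm44033, with 816 and 11 counts in all libraries, and without stated strandedness their reads cannot be told apart from those of Ghrl. The other 9 overlap no annotated gene.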

How the data were processed

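PolyA RNA of small intestine was sequenced in bulk from 20 pups. The deposited table holds expected counts from RSEM, all of them whole. The submitters' processing notes list cutadapt 4.8, FastQC 0.11.8, STAR 2.7.8a and RSEM 1.3.3 with builds GRCh38 and GRCm38. Annotation release and strandedness are not given in the sources used here. The 4 table lines that name no mouse gene hold 0 counts.

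Tests used edgeR 4.0.16 in R 4.3.3 (filterByExpr, TMM, robust quasi-likelihood, 1 mean per group over 20 libraries). Benjamini-Hochberg adjustment covered 17464 genes (threshold 0.05). Intervals of fold changes are not adjusted. SE come from dividing each log2 fold change by the root of its F statistic. Log2 CPM use a prior count of 2. CPM are TMM-scaled counts from edgeR. DESeq2 1.42.0 and limma 3.58.1 were alternatives. The procedure was tested on simulated data. The hormone genes and the 15 other lists were chosen with earlier results of these data known. Up to 4 called genes per list, those with the smallest p, were named, or up to 2 where none passed. Replicate numbers were not used to pair libraries, since only 4 of 30 same-number pairs had a correlation over 0.1. Libraries were compared and none were identical.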

Additional observations from a re-analysis of the deposited data

Results flagged for a closer look

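In 7 of the 40 sets of 5 libraries (10 genes in 4 groups), 1 library stood far from the other 4, where chance gives about 1 in 20 such sets. Of these, 5 are in 2-week control library 5. There Gcg stood at 147 CPM (18.0 to 21.4 in the others), Nts at 101 CPM (30.5 to 35.0), Tac1 at 18.4 CPM (5.39 to 7.25), Sct at 9.26 CPM (22.5 to 27.5) and Ghrl at 4.43 CPM (8.53 to 9.24). This library also had the highest mitochondrial percentage. Pyy in 7-week control library 2 stood at 4.07 CPM against 1.81 to 2.32 in the others. Tac1 in 7-week periodontitis library 5 stood at 6.31 CPM against 1.02 to 2.18.

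For Pyy every periodontitis library lay above every control library at 2 weeks and below every control library at 7 weeks. The difference of the 2 effects was -1.90 on the log2 scale, and its test did not pass by edgeR (adjusted p = 0.158).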

How the results depend on the processing

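Between dams at 2 weeks limma-voom called 2 and at 7 weeks DESeq2 called 1. For the difference between ages DESeq2, limma-voom and the removal of 2-week control 5 with 7-week periodontitis 5 called 1 each. With the proximal and distal scores as covariates 4 were called with age in control pups and 6 in periodontitis pups. In the latter Gcg, Ghrl and Tac1 were lost and Nts was called in the other direction. That fit called 7115 and 8961 of all 17464 tested genes. It cannot tell age from position, since the distal score does not overlap between the ages. Under total counts 9 and 8 were called with age, beside 11577 and 12453 of all tested genes. Sst was then lost in both, Ghrl lost in periodontitis pups and Tph1 gained in both. DESeq2 called 8 in both, with no adjusted p for Gcg, and the replicate block 9 and 8. Over all tested genes DESeq2 called 11140 and 11958 with age, and the replicate block 10412 and 11195. Leaving out 1 library at a time gave 0 calls in the dam comparisons, 9 with age in control pups and 7 to 9 in periodontitis pups. Over all tested genes these fits called 10013 to 12408 with age in control pups and 10794 to 13378 in periodontitis pups. Between dams these fits called 0 to 387 of all tested genes at 2 weeks and 0 to 15 at 7 weeks. For the difference between ages they called 1 to 26. A fit of only the groups compared gives no value for the difference between ages. Scaling by total counts and the correlations without 2-week control 5 were added after the data were seen. All-gene calls at 2 weeks were 5 by edgeR, 599 by DESeq2, 5200 by limma-voom and 361 without the 2 libraries. DESeq2 size factors, the groups compared alone, the replicate block and the covariates gave 0 and no robust estimation 17. At 7 weeks they were 2 by edgeR, 25 by DESeq2, 8 by limma-voom and 32 without the 2 libraries, and for the difference between ages 4, 65, 1182 and 159. The causes were not tested. At 7 weeks Pyy rests on 9 to 83 counts, which limits its precision.

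Values that changed sign, on the log2 scale, were these. At 2 weeks limma-voom gave 0.12 for Gcg, 0.19 for Nts and 0.045 for Tac1, and the removal of the 2 libraries 0.13, 0.15 and 0.12. Sct was 0.00093 with no filter, 0.30 with the segment covariates and 0.052 with total counts, and Nts 0.17 with the covariates. At 7 weeks Sst was 0.016 by limma-voom, 0.10 with the covariates and 0.030 with total counts. The covariates gave -0.48 for Gcg, 0.00063 for Cck, -0.38 for Nts and 0.24 for Ghrl, and Tac1 was -0.28 without the 2 libraries. For the difference between ages Tac1 was -0.024 by limma-voom, and Gip -0.044 with no filter and -0.11 with total counts. The covariates gave -0.54 for Nts and 0.0096 for Ghrl, and the removal of the 2 libraries -0.10 for Gcg, -0.40 for Tac1 and -0.037 for Tph1. With age in control pups the covariates gave 0.30 for Gcg, 2.49 for Nts, -0.062 for Ghrl and 0.50 for Tph1. In periodontitis pups they gave 0.49 for Gcg, 1.94 for Nts and -0.052 for Ghrl, and Tph1 was -0.024 with no filter, -0.70 with total counts and -0.089 without the 2 libraries.

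Leaving out 1 library at a time gave, at 2 weeks, -1.26 to 0.13 for Gcg, -0.47 to 0.16 for Nts, -0.21 to 0.12 for Sct and -0.48 to 0.12 for Tac1. At 7 weeks it gave -0.065 to 0.044 for Sst and -0.28 to 0.66 for Tac1. For the difference between ages it gave -0.10 to 0.10 for Gip and -0.026 to 0.30 for Sct, and with age in periodontitis pups -0.092 to 0.22 for Tph1.

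With the replicate number as a block, 0 hormone genes and 0 of all tested genes were called between dams at either age. Nts with age in periodontitis pups was -0.79 with an edgeR adjusted p of 0.056. Gip in the difference between ages was then -0.0090 and Tph1 with age in periodontitis pups -0.0018. The numbers do not pair the libraries by the labels, correlations of same-number pairs ran from -0.397 to 0.288, and a library correlated best with its own number in 5 of 30 cases.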
